A study of Homo sapiens with 12 samples.

Results

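The cluster of miR-183, miR-96 and miR-182 was represented by 2 of the 153 mature miRNAs analysed, hsa-miR-183-5p and hsa-miR-182-5p (hereafter miR-183-5p and miR-182-5p), both listed in the table of parental and in the table of CSC-like exosomes. They were selected by name, as any arm of hsa-miR-183, hsa-miR-96 or hsa-miR-182, and not by a threshold on their values. The cluster itself was chosen with earlier results of these data known. No row of miR-96 or of a 3p arm was analysed here. The libraries held small RNA from exosomes, vesicles released by cells, of MDA-MB-231, a human line established from a breast adenocarcinoma. The 4 groups had 3 libraries each. They came from parental cells or from cells sorted as CSC-like, that is resembling cancer stem cells, and either population was left untreated or exposed to 56 µM cisplatin, a platinum drug that crosslinks DNA, for 48 h. All cells were grown in serum from which exosomes had been depleted. Both populations derive from 1 cell line, and the markers used for the sort are not given in the labels. Because the libraries are bulk samples, fewer vesicles carrying a miRNA and less of it per vesicle cannot be told apart.

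The 3 miRNAs of the cluster are cut from a shared primary transcript and are best known from sensory cells of the ear and retina. In breast cancer the cluster is usually described as raised in tumours, whereas profiling of sorted human breast cancer stem cells found it lower together with both miR-200 clusters. ZEB1, a repressor that drives the mesenchymal state, represses miR-183 as well as the miR-200 family. miR-182 and miR-96 target the transcription factor FOXO1, miR-182 also targets the repair gene BRCA1, and miR-183 targets the transcription factor EGR1. A miRNA chooses its targets mainly through its seed, bases 2 to 8.

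The mature sequences are shown to compare the seeds of the cluster, which are in capitals. They are written as RNA from RefSeq (GRCh38.p14), and those of miR-183-5p and miR-182-5p are identical to the sequences by which the deposited tables identify them.

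miR-183-5p: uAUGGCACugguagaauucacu
miR-96-5p: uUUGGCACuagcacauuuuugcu
miR-182-5p: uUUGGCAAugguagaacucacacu

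With positions counted from 1 at the 5′ end, miR-183-5p and miR-182-5p differ by A2U, C8A, U17C and U22A, and miR-182-5p is 24 bases long against 22. The seeds of miR-183-5p and miR-182-5p therefore differ at 2 positions, and the seed of miR-96-5p differs from each of them at 1 position. None of the other listed miRNAs had any of these 3 seeds. The number of mismatches allowed in read annotation is not given in the sources used here, so misassignment of single reads between the pair, which matches at most positions, was not tested.

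In GRCh38 all 3 genes are on chromosome 7, minus strand. MIR183, the first in the direction of transcription, spans chr7:129774905-129775014. MIR96 spans chr7:129774692-129774769, 135 bases downstream, and MIR182 spans chr7:129770383-129770492, another 4199 bases downstream. None of them overlaps another annotated gene in GENCODE 29, and the nearest protein-coding gene beyond MIR182 is NRF1, 13300 bases away. The miR-182 hairpin is shown to place the arm that was counted, with the 5p arm in capitals.

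miR-182 hairpin: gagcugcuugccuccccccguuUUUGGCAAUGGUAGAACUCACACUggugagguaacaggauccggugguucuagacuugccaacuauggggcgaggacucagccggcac

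Depth limited every value. Libraries held 429 to 6622 listed counts, and levels are given as the share of listed counts in a library with an exact (Clopper-Pearson) 95% interval that covers counting error only. In the cisplatin-treated CSC-like group, replicates 2 and 3 showed no detectable difference over sampling error (a chi-square of 1.18 per degree of freedom) and entered as 1 sample, which left 2 samples in that group. Cisplatin-treated parental replicates 2 and 3 also differed far less from each other (1.48 per degree of freedom, chi-square p = 0.012) than from replicate 1. They were kept as separate samples. The labels do not say whether separate cultures were used for replicates, so the p-values cover only the variation among these libraries, which may be technical. All 6 miRNAs taken as typical of MDA-MB-231, among them miR-21-5p, miR-100-5p and miR-221-3p, were listed. Together they made up 50.8% to 60.7% of the counts of a library. In every library most of this total was miR-100-5p and miR-21-5p (51.1% and 6.72% in untreated parental replicate 1). miR-222-3p and miR-29a-3p, also in the list, had 1 to 11 and 0 to 19 counts per library. The list was chosen with earlier results of these data known, so its total is not an independent check of identity. Of 7 epithelial miRNAs only miR-200b-3p and miR-429 were listed, with 0 to 8 counts per library. Of 7 blood and serum miRNAs 3 were listed in each table, with 0 to 13 counts per library.

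In parental exosomes miR-183-5p ranked 21st and miR-182-5p 28th of 137 miRNAs by total count, and in CSC-like exosomes they ranked 34th and 40th of 114. The parental ranks rest on summed counts, to which replicate 1 of cisplatin-treated parental cells gave 70 of miR-183-5p and 46 of miR-182-5p. In single libraries miR-183-5p ranked from 12th to 45th and miR-182-5p from 17th to 62nd, the last at a count of 0. In the parental libraries miR-183-5p was counted 123 times and miR-182-5p 97 times, and in the CSC-like libraries 28 and 23 times.

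In untreated parental exosomes miR-183-5p was counted 6, 4 and 15 times, which is 0.170%, 0.151% and 0.375% of listed counts in replicates 1, 2 and 3. After cisplatin it was counted 70, 11 and 17 times, or 1.06%, 0.310% and 0.433%. Replicate 1 of the treated cells stood above every other library, while treated replicate 2 lay below untreated replicate 3, so the groups overlapped. In untreated CSC-like exosomes miR-183-5p was counted 5, 5 and 4 times (0.328%, 0.230% and 0.159%), and after cisplatin 1, 8 and 5 times (0.233%, 0.426% and 0.317%). These ranges overlapped as well, and the value of treated replicate 1 rests on 1 count of 429, with an interval of 0.00590% to 1.29%.

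miR-182-5p was counted 10, 9 and 11 times in untreated parental exosomes (0.284%, 0.340% and 0.275%) and 46, 6 and 15 times after cisplatin (0.695%, 0.169% and 0.382%). The untreated libraries lay close together, and the treated libraries lay both above and below them. In untreated CSC-like exosomes miR-182-5p was counted 4, 7 and 2 times (0.262%, 0.322% and 0.0793%). After cisplatin it was counted 0, 6 and 4 times in CSC-like exosomes, or 0%, 0.320% and 0.254%. The count of 0 in treated replicate 1 allows a share of up to 0.699% (3 counts of the total; the exact interval drawn in the plot of shares reaches 0.856%), which is above the share of every other library, so a loss was not detectable at this depth.

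**Figure D1:**
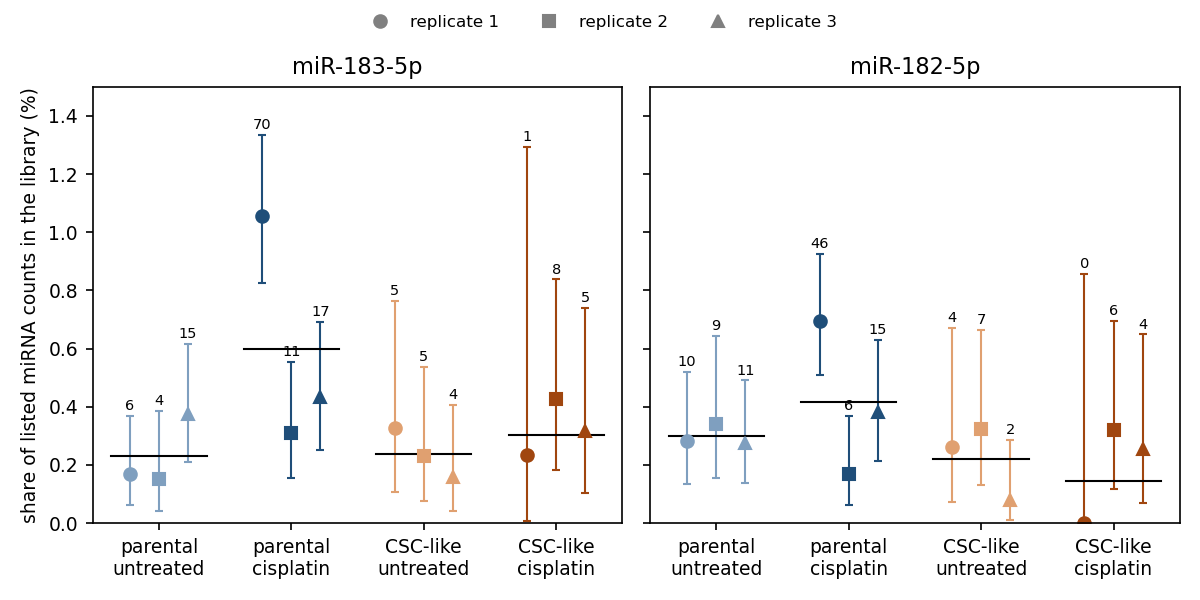
Share of listed counts (%, vertical axis) of miR-183-5p and miR-182-5p in each library of the 4 groups, with replicates as symbols, exact 95% intervals as bars, counts above them and group means as black lines (in the cisplatin-treated CSC-like group, replicates 2 and 3 averaged first). Replicate 1 of cisplatin-treated parental cells is highest for both miRNAs, at 1.06% and 0.695%, and the ranges of all groups overlap.

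Ordered by the group mean, miR-183-5p was highest in cisplatin-treated parental exosomes (0.600% ± 0.401, SD, n = 3), followed by cisplatin-treated CSC-like (0.302% ± 0.0981, SD, n = 2), untreated CSC-like (0.239% ± 0.0849, SD, n = 3) and untreated parental exosomes (0.232% ± 0.124, SD, n = 3). For miR-182-5p the order was cisplatin-treated parental (0.415% ± 0.264, SD, n = 3), untreated parental (0.299% ± 0.0354, SD, n = 3), untreated CSC-like (0.221% ± 0.127, SD, n = 3) and cisplatin-treated CSC-like exosomes (0.143% ± 0.203, SD, n = 2). In both orders each group differed from the next by less than the larger SD of the pair. Without replicate 1 the mean of cisplatin-treated parental exosomes was 0.372% ± 0.0874 (SD, n = 2) for miR-183-5p and 0.276% ± 0.151 (SD, n = 2) for miR-182-5p. In the cisplatin-treated CSC-like mean of miR-182-5p, replicate 1, with 0 of 429 counts, had the weight of 1 of 2 samples. Replicates 2 and 3 held 0.320% and 0.254%, and over 3 separate libraries the mean was 0.191% ± 0.169 (SD, n = 3).

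The first comparison asked whether exosomal levels of the cluster differed after cisplatin in parental cells. Neither miRNA passed the test. miR-183-5p had a log2 fold change of 1.35 (SE 0.80, 95% interval -0.22 to 2.91) and an adjusted p of 0.865 in edgeR's quasi-likelihood test with Benjamini-Hochberg adjustment over 137 miRNAs. For miR-182-5p the log2 fold change was 0.41 (SE 0.78, interval -1.13 to 1.95, adjusted p = 0.935 in edgeR). Of all listed miRNAs 0% were called in this comparison, and the groups did not overlap for 9.49% of them, against neither of the cluster's miRNAs. edgeR gave 7 miRNAs an unadjusted p under 0.05, and DESeq2 likewise called 0. The exact two-sided permutation test of the share gave p = 0.2 for miR-183-5p and p = 0.7 for miR-182-5p, where 3 against 3 samples cannot give less than 0.1.

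Both fitted values rested on replicate 1 of the treated cells. Without it the log2 fold change was 0.49 (SE 0.83) for miR-183-5p and -0.32 (SE 0.84) for miR-182-5p, with an adjusted p of 0.978 for both in edgeR. In the authors' deposited table miR-183-5p had a signed fold change of 2.56 (unadjusted p = 0.148) and miR-182-5p one of 1.43 (unadjusted p = 0.459), on their scale of weighted proportions.

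Replicate 1 of cisplatin-treated parental cells was also the deepest library, with 6622 listed counts against 3552 and 3924 in replicates 2 and 3, and its composition differed from theirs (chi-square per degree of freedom 16.1 and 16.4). Set against the mean share of those replicates, miR-183-5p was 2.85 times and miR-182-5p 2.52 times as high in replicate 1. They ranked 9th and 11th of 54 miRNAs with at least 15 counts in the treated libraries. The highest ratios, a choice made after the values were seen, belonged to miR-1290 (19.0, resting on 16 counts against 1), miR-4488 (4.03) and miR-1246 (3.98). The part of these differences in the levels of the cluster was not tested.

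**Figure D2:**
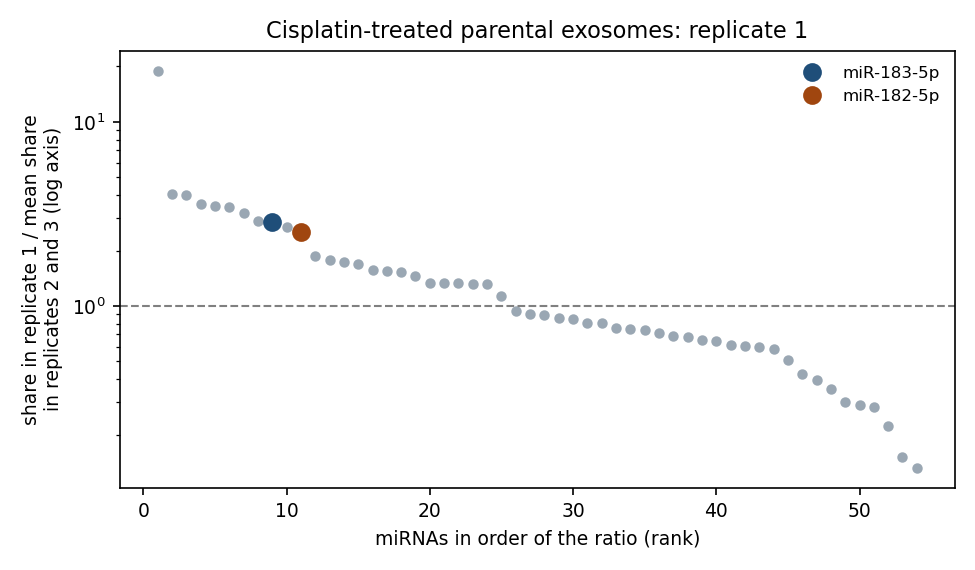
Ratio of the share in replicate 1 to the mean share in replicates 2 and 3 of cisplatin-treated parental exosomes (log axis), for 54 miRNAs with at least 15 counts, in order of the ratio (horizontal axis, rank); the dashed line marks a ratio of 1. miR-183-5p (2.85) and miR-182-5p (2.52) are coloured and rank 9th and 11th.

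The second comparison concerned cisplatin in the CSC-like population. miR-183-5p had a log2 fold change of 0.59 (SE 0.93, interval -1.24 to 2.42) and miR-182-5p of 0.14 (SE 0.94, interval -1.71 to 1.98), with an adjusted p of 0.995 for both in edgeR over 114 miRNAs. edgeR called 0.877% of all miRNAs here, which is miR-3135b alone (named, as the single calls below are, after its value was seen), and the ranges of the groups did not overlap for 6.14% of them and for neither miRNA of the cluster. In the exact permutation test, whose smallest p for 3 against 2 samples is 0.1, p was 0.4 for miR-183-5p and 0.6 for miR-182-5p. The sign of miR-182-5p was not settled: its mean share was lower after cisplatin, its fitted value on summed counts was slightly above 0, and DESeq2 placed it at -0.14. The authors' deposited table gives a signed fold change of 1.60 (unadjusted p = 0.253) for miR-183-5p and of 1.13 (unadjusted p = 0.837) for miR-182-5p.

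The third set of comparisons placed CSC-like beside parental exosomes, over the 98 miRNAs that both tables list. Among untreated libraries miR-183-5p had a log2 fold change (CSC-like over parental) of -0.13 (SE 0.89, interval -1.87 to 1.61) and miR-182-5p of -0.50 (SE 0.89, interval -2.24 to 1.25), each with an adjusted p of 0.990 in edgeR. edgeR called 1.02% of the miRNAs, namely miR-30b-5p, and the ranges did not overlap for 11.2% of them and for neither of the cluster's miRNAs. The exact permutation p was 0.9 for miR-183-5p and 0.4 for miR-182-5p. These intervals are wide, and they do not show that the populations carry the same level.

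Among cisplatin-treated libraries both miRNAs had lower fitted values in CSC-like exosomes, -1.01 (SE 0.86, interval -2.71 to 0.69) for miR-183-5p and -1.01 (SE 0.87, interval -2.73 to 0.71) for miR-182-5p, on the log2 scale. Neither passed (adjusted p = 0.912 for both in edgeR, 1.02% of miRNAs called, which is miR-3135b, exact permutation p = 0.5 and 0.4). Without replicate 1 of the treated parental cells these values were 0.076 and 0.0058, so the sign rested on that library. The ranges of these groups did not overlap for 11.2% of all miRNAs, and overlapped for both miRNAs of the cluster.

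In the model over all 4 groups, with 11 samples, the averages had smaller standard errors than the difference between the responses. Averaged over treatment, CSC-like exosomes differed from parental ones by a log2 fold change of -0.68 for miR-183-5p (SE 0.64, interval -1.94 to 0.58, adjusted p = 0.868 in edgeR) and of -0.92 for miR-182-5p (SE 0.64, interval -2.18 to 0.34, adjusted p = 0.701 in edgeR), while 1.02% of all miRNAs, again miR-3135b, were called. Without replicate 1 of treated parental cells these values were -0.17 for miR-183-5p and -0.45 for miR-182-5p. The exact permutation p, with samples relabelled within each treatment, was 0.49 and 0.17. Averaged over populations, cisplatin-treated exosomes differed from untreated ones by 0.87 for miR-183-5p (SE 0.63, interval -0.38 to 2.11, adjusted p = 0.880 in edgeR) and by 0.18 for miR-182-5p (SE 0.63, interval -1.06 to 1.42, adjusted p = 0.950 in edgeR), with 0% of all miRNAs called, 7 at an unadjusted p under 0.05 and 0 called by DESeq2. Without replicate 1 of treated parental cells these log2 fold changes with cisplatin were 0.60 for miR-183-5p and -0.0088 for miR-182-5p. The exact permutation p over all samples, relabelled within each population, was 0.08 for miR-183-5p and 0.87 for miR-182-5p. Over the 14 permutation tests of both miRNAs the lowest p adjusted by Benjamini-Hochberg was 0.728. Pairwise comparisons of groups cannot give a permutation p under 0.1, so none of them could pass 0.05. The other tests move in steps of 0.005, so a single smallest p could not pass over 14 tests either.

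The cisplatin responses of the populations were compared by the interaction term. The response in CSC-like exosomes minus that in parental exosomes was -0.62 for miR-183-5p (SE 1.29, interval -3.16 to 1.91) and -0.22 for miR-182-5p (SE 1.30, interval -2.78 to 2.33), with an adjusted p of 0.954 for both in edgeR and 1.02% of miRNAs, miR-3135b alone, called. Leaving out 1 library at a time gave -1.05 (without replicate 3 of untreated parental cells) to -0.080 (without replicate 1 of treated parental cells) for miR-183-5p. For miR-182-5p it gave -0.65 to 0.25, and the value was above 0 without replicate 1 of treated parental cells, replicate 2 of untreated CSC-like cells or replicate 1 of treated CSC-like cells. A difference between the responses was therefore not detected, and the intervals are too wide to show that they were alike.

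**Figure D3:**
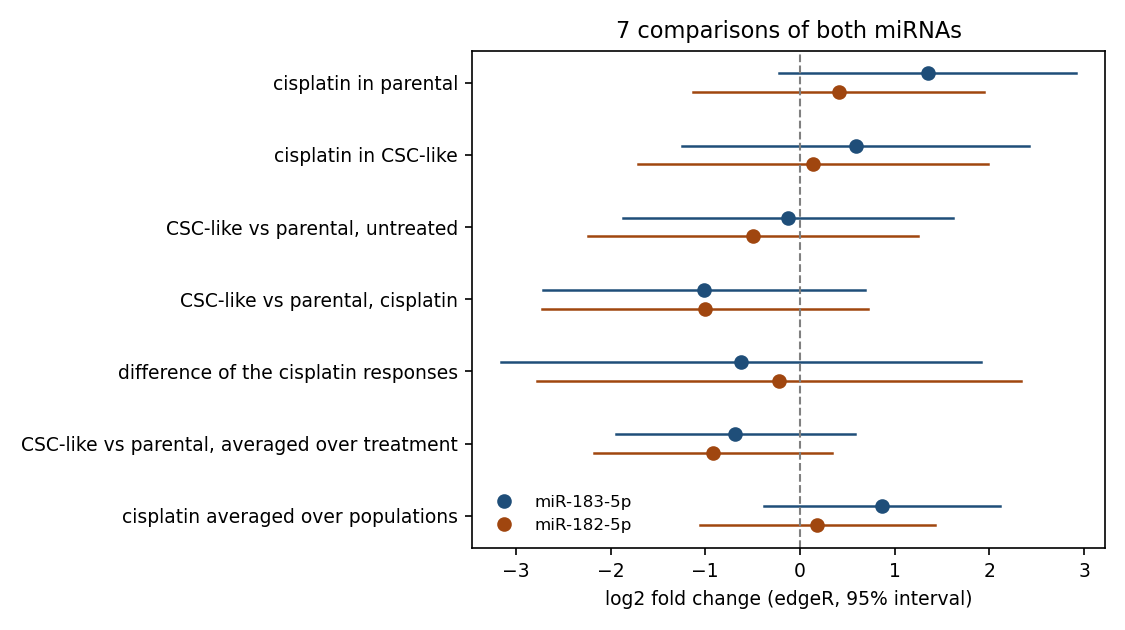
Log2 fold changes (horizontal axis) of miR-183-5p and miR-182-5p in the 7 comparisons, with 95% intervals from edgeR as lines; the dashed line marks no difference. Every interval includes 0, and the values for miR-183-5p run from -1.01 to 1.35.

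The balance of the pair can be read within each library, where it does not depend on the total. Over all 12 libraries miR-183-5p was counted 151 times and miR-182-5p 120 times, so miR-183-5p made up 55.7% of the pair. This describes read counts and not molecules. miR-183-5p had more counts than miR-182-5p in 9 libraries and fewer in 3, which were untreated parental replicates 1 and 2 and untreated CSC-like replicate 2.

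In untreated parental exosomes the pair stood at 6 to 10, 4 to 9 and 15 to 11 counts, or 37.5%, 30.8% and 57.7% miR-183-5p. In cisplatin-treated parental exosomes it stood at 60.3%, 64.7% and 53.1%. All treated libraries held more miR-183-5p than miR-182-5p, yet treated replicate 3 lay below untreated replicate 3. Replicate 1, with 116 counts of the pair, was the only library of the 12 whose exact 95% interval (50.8% to 69.3%) did not include 50%.

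In CSC-like exosomes miR-183-5p made up 55.6%, 41.7% and 66.7% of the pair without cisplatin and 100%, 57.1% and 55.6% with it, where the value of 100% is a single count. Summed over a group, it was 45.5% in untreated parental (exact 95% interval 32.0% to 59.4%, 55 counts), 59.4% in cisplatin-treated parental (51.5% to 67.0%, 165 counts), 51.9% in untreated CSC-like (31.9% to 71.3%, 27 counts) and 58.3% in cisplatin-treated CSC-like exosomes (36.6% to 77.9%, 24 counts). These intervals overlap and cover counting error only, and the difference between groups was not tested.

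**Figure D4:**
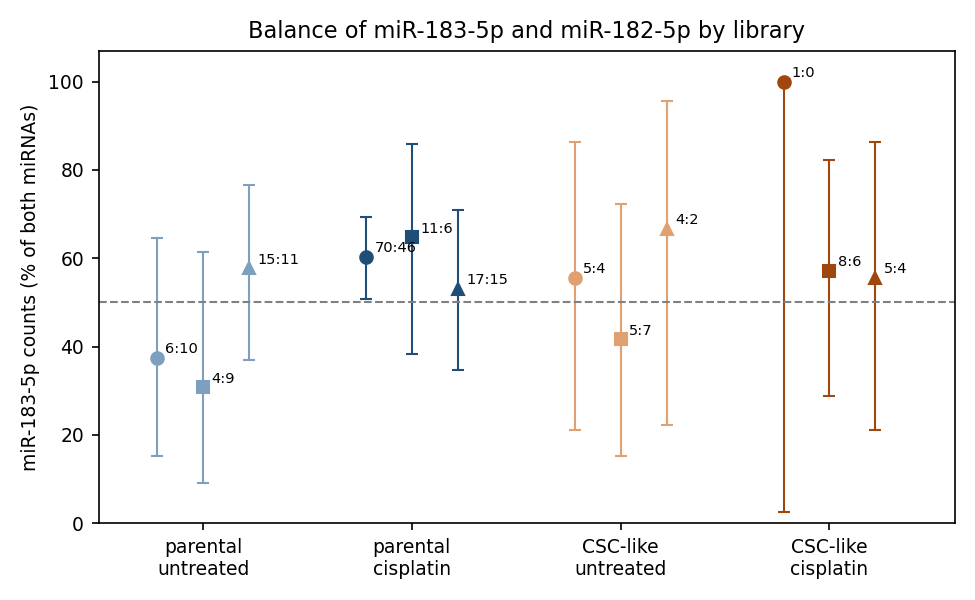
miR-183-5p as a percentage of the counts of miR-183-5p and miR-182-5p together (vertical axis) in each library of the 4 groups, with exact 95% intervals as bars and both counts (miR-183-5p first) beside each point; the dashed line marks equal counts. The 6 untreated libraries lie on both sides of the line and the 6 treated ones above it, while the interval of a single library, parental cisplatin replicate 1, does not include 50%.

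Across the 12 libraries the shares of miR-183-5p and miR-182-5p had a Pearson r of 0.79 and a Spearman rho of 0.38. Without replicate 1 of cisplatin-treated parental cells these were 0.38 and 0.19, so the linear relation rested largely on that library. By Spearman rho miR-182-5p ranked 12th among 77 miRNAs with at least 15 counts. The 3 miRNAs outside the cluster with the highest Spearman rho to miR-183-5p over all 12 libraries were miR-1290 (rho 0.58, Pearson r 0.71, counted in 6 of the 12 libraries), miR-148a-3p (rho 0.50, r 0.50) and miR-99b-5p (rho 0.46, r 0.026). The order depended on the measure and on replicate 1 of treated parental cells: without that library rho was 0.45, 0.40 and 0.38 for these 3, below miR-200b-3p at 0.66 and miR-320a-3p at 0.62. Shares within a library add up to a fixed total and the libraries include 4 groups of different depth. The highest values were also picked from 77 miRNAs, so these correlations are descriptions only.

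**Figure D5:**
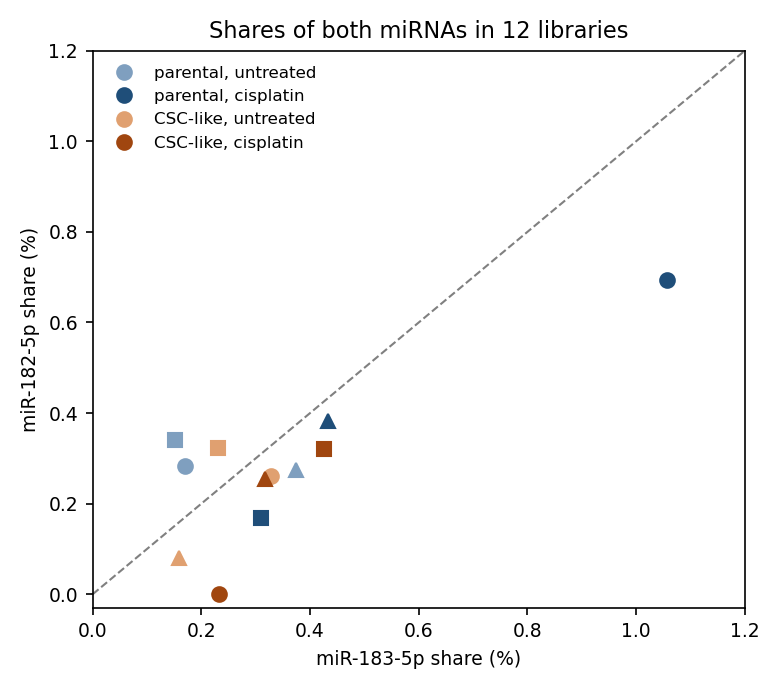
Share of miR-182-5p (%, vertical axis) against that of miR-183-5p (%, horizontal axis) in the 12 libraries, coloured by group, with circles, squares and triangles for replicates 1, 2 and 3; the dashed line marks equal shares. Replicate 1 of cisplatin-treated parental cells stands apart at 1.06% and 0.695%, and the other 11 libraries reach at most 0.433% and 0.382%.

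Summed over each group, the listed miRNAs of the other clusters known to be low in breast cancer stem cells were scarcer than miR-183-5p or miR-182-5p. In single libraries this did not always hold against miR-182-5p. Of 9 arms of miR-200a, miR-200b, miR-200c, miR-141 and miR-429, 2 were listed, and none passed in any comparison. miR-200b-3p, which represses ZEB1 and ZEB2 and so holds the epithelial state, was counted 4, 0 and 5 times in untreated and 4, 7 and 8 times in cisplatin-treated parental exosomes. In CSC-like exosomes its counts were 2, 2 and 1 in untreated libraries and 1, 4 and 1 in treated ones. Its log2 fold change of CSC-like over parental exosomes, averaged over treatment, was -0.13 (SE 0.75, adjusted p = 0.931 in edgeR). miR-429, of the same family, had 0 to 3 counts in a library. No arm of miR-203a, another miRNA that ZEB1 represses, was among the rows analysed.

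miR-27a-3p, which targets FOXO1 in breast cancer cells as miR-182 and miR-96 do, was counted 7, 12 and 4 times in untreated parental exosomes and 23, 25 and 18 times after cisplatin. In CSC-like exosomes its counts were 6, 4 and 28 in untreated libraries and 4, 10 and 5 in treated ones. Its log2 fold change with cisplatin was 0.83 (SE 0.80) in parental and -0.082 (SE 0.90) in CSC-like exosomes, and neither passed in edgeR (adjusted p = 0.935 and 0.995). The ranges of its shares overlapped in both populations.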

How the data were processed

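Per the labels' protocols, small RNA was recovered from exosomes with a column kit and sequenced after multiplex library preparation. cutadapt and FastQC appear in the submitters' processing notes, while the sources used here do not name the aligner, the genome build or the miRNA release. Per the file headers, the deposited values are untransformed read counts of mature miRNAs in single libraries. The authors also deposited a score per miRNA (their signed fold change of weighted proportions) and an unadjusted p-value from Baggerley's test. All listed miRNAs had a count in both groups of their table, so a miRNA seen in 1 group only cannot appear. From either file, 1 line was not analysed here.

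All listed miRNAs were fitted in edgeR 4.0.16 (with limma 3.58.1 under R 4.3.3) without a low-count filter, with listed totals as library sizes, TMM and the quasi-likelihood test. P-values were adjusted by Benjamini-Hochberg over the miRNAs of a comparison, with 0.05 as the threshold. Both miRNAs of the cluster would pass filterByExpr in the parental comparison, where 37 pass, but not in the CSC-like one (29) or the untreated one (30). The spread of each miRNA was shrunk fully to an estimate shared over the miRNAs of a comparison, which by default may follow abundance. Total degrees of freedom were therefore 294 to 686, and intervals do not reflect the replicate variation of a single miRNA. Standard errors were derived from fold changes and F statistics. The pair counted as 1 sample was summed for the fit and averaged for shares. Shares were compared by exact permutation of samples. For the interaction, populations were relabelled within each treatment (permutation p = 0.44 for miR-183-5p and 0.52 for miR-182-5p). That relabelling is exact only where the populations do not differ in either treatment, so it is not an exact test of equal responses. The fit was tested on simulated data with planted changes much larger than those fitted here, so it does not show that differences of the fitted size were detectable. DESeq2 1.42.0 was an alternative. The cluster, the lists and the rule for named miRNAs were chosen with earlier results of these data known. The rule takes all listed arms of the cluster, of miR-200, miR-141, miR-429 and miR-203a, miR-27a-3p, and the 3 miRNAs with the highest Spearman rho to miR-183-5p.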

Additional observations from a re-analysis of the deposited data

How the results depend on the processing

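Neither miRNA passed the threshold of 0.05 in any of 210 alternative fits over the 7 comparisons, in which the lowest adjusted p was 0.316 (miR-183-5p, cisplatin in parental cells, filterByExpr). The sign was kept in 193 of these fits and turned in 17. miR-182-5p turned with cisplatin in CSC-like cells to -0.14 in DESeq2 and to -0.0098 with at least 15 counts as the filter, with filterByExpr to 0.22 for the difference of the responses and to -0.0042 for cisplatin averaged over populations. On leaving out 1 library at a time, the log2 fold change of miR-182-5p ranged from -0.32 to 0.80 for cisplatin in parental cells, from -0.22 to 0.80 for cisplatin in CSC-like cells, from -1.47 to 0.0058 for CSC-like over parental after cisplatin, from -0.65 to 0.25 for the difference of the responses and from -0.030 to 0.65 for cisplatin averaged over populations. That of miR-183-5p ranged from -0.50 to 0.47 for CSC-like over parental untreated (0.47 without untreated parental replicate 3) and from -1.38 to 0.076 after cisplatin. The causes were not tested.

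Same-numbered replicates did not all deviate together (correlations 0.28, 0.35 and -0.043 in the parental and -0.40, -0.41 and 0.071 in the CSC-like table), and 3 of 6 parental and 0 of 6 CSC-like libraries matched best with their own number. With a replicate block, fitted with replicates 2 and 3 of the treated CSC-like group kept separate, the log2 fold change with cisplatin was 1.15 for miR-183-5p and 0.20 for miR-182-5p in parental cells, and 0.58 and 0.15 in CSC-like cells. In that fit the number of all miRNAs called went from 1 to 0 between untreated groups and from 0 to 2 for cisplatin averaged over populations, where separate libraries alone gave 1, and no other count changed.

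Over all alternatives the number of miRNAs called ranged from 0 to 3 for cisplatin in parental cells (0 as reported, 3 with library totals, 2 with filterByExpr and 3 with at least 15 counts) and from 0 to 2 for both averages; it was 0 or 1 in the other comparisons, except after cisplatin, where it stayed at 1. Library totals moved the median log2 fold change of all miRNAs from -0.18 to -0.025 for cisplatin in parental cells and from 0.41 to 0.17 for the difference of the responses. filterByExpr gave no value for either miRNA with cisplatin in CSC-like cells or between untreated groups. Without the 5 most counted miRNAs in the total, mean shares of miR-183-5p were 0.673%, 1.87%, 0.661% and 0.857% and those of miR-182-5p 0.874%, 1.30%, 0.611% and 0.427% in untreated and treated parental and untreated and treated CSC-like exosomes. Counts of at most 15 in 21 of the 24 values limit what could be detected.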
